A study of Homo sapiens with 4 samples.

Results

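The genes of the proteasome were taken from the deposited gene counts as every symbol made of PSM, 1 letter from A to G and a number, which gave 48 of 28278 gene symbols. The 4 libraries were polyA RNA from HepG2 cells, a line established from a human liver tumour, carrying a lentivirus that expressed Cas9 with either a control sgRNA or an sgRNA against *USP22*. The cells of all 4 libraries had received Sorafenib, a multikinase inhibitor, for 24 h, so no untreated cells enter the comparison, and the 2 groups hold 2 libraries each, named control and sgUSP22. Each line was a puromycin-selected population made with 1 sgRNA, and the sources used here do not say whether the libraries of a group came from separate cultures, so the p-values measure only the spread between these samples.

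The libraries held from 62030307 to 64728272 counts, and the proteasome genes took 0.589% and 0.580% of the counts in control and 0.577% and 0.569% in sgUSP22. *USP22*, the targeted deubiquitinase gene, was counted 16450 and 16537 times in control, and 20279 and 20368 times under the label sgUSP22. Its transcript was therefore not lower in the libraries labelled as knockout, with a log2 fold change of 0.22 (SE 0.034). Protein was not measured in these files, and each direction given here is that of the libraries labelled sgUSP22 over those labelled control. Of 24 hepatocyte and HepG2 markers, 21 had at most 20 counts in every library and 13, *ALB*, *APOA1* and *APOB* among them, were at 0 in all 4, while the keratin genes *KRT8* and *KRT18* were abundant. The labelled cell type is therefore not borne out by its defining secreted-protein genes. Among 10 leukocyte markers 5 were at 0 in all libraries and *PTPRC* had at most 4 counts, but *CD68* and *CSF1R* were detected, and the summed normalised level of the list ran from 76.7 to 77.0 CPM in control and from 45.2 to 48.1 CPM in sgUSP22. The 8 fibroblast markers summed to 641 to 646 CPM in control and 900 to 902 CPM in sgUSP22, with 3 of the 6 tested higher, 1 lower and 2 not past the test, from -0.98 for *PDGFRB* on the log2 scale to a mean of 9.81 against 78.2 CPM for *DCN*, and the 5 endothelial markers had at most 20 counts in every library. The part of these shifts in the proteasome results was not tested, and in bulk RNA fewer cells of a type and less RNA per cell cannot be told apart.

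The proteasome is the protease that degrades ubiquitin-tagged proteins. Its 20S core is a stack of rings in which alpha subunits gate the entrance and beta subunits carry the proteolytic sites. The 19S regulatory particle, a base with a ring of ATPases and a lid with a deubiquitinase, recognises, unfolds and feeds the substrate, dedicated chaperones assemble core and base, and activators such as PA28 and PA200 can cap the core instead. Interferon and other inflammatory signals replace the catalytic beta subunits by inducible ones to form the immunoproteasome, which shapes the peptides loaded on MHC class I molecules.

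Most proteasome genes moved little, the inducible core subunits *PSMB8* and *PSMB9* rose most, and the other genes that passed the test were lower more often than higher, with both directions among the alpha subunits, the 19S non-ATPases, the activators and the assembly chaperones. Levels are given as CPM, counts scaled to a common library size with TMM factors, which assume that most genes do not shift, and a log2 fold change is that of the sgUSP22 libraries over the control libraries. Of the 48 genes, 46 passed the filter on low counts and were tested together with all 15150 genes that passed. *PSMA8*, the alpha subunit of testis, and *PSMB11*, the beta subunit of the thymus, were at 0 in all 4 libraries, which allows up to 3 counts, or 0.0463 to 0.0484 CPM. At an adjusted p below 0.05 (Benjamini-Hochberg, over all genes tested) in the quasi-likelihood test of edgeR, 10 proteasome genes were higher, 19 were lower and 17 did not pass. The shares over all genes tested were 26.8% higher and 25.8% lower, and 52.5% in either direction. With a fold change of at least 1.5 required as well, 1 gene, *PSMB9*, was called higher and 0 lower, against 8.88% higher and 7.25% lower over all genes tested. The count of higher genes depended on single libraries, with 5 without control replicate 2 and 6 without sgUSP22 replicate 2. The calls at the adjusted p of *PSMB4*, *PSMB7*, *PSMC3*, *PSMD5*, *PSMD6*, *PSMD10*, *PSMD14*, *PSME2*, *PSMG3* and *PSMG4* were each lost when 1 or more of the libraries were left out in turn.

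The groups did not overlap for 11 proteasome genes in the higher direction and 24 in the lower, and overlapped for 11, while over all genes tested the values were 38.3% higher, 37.6% lower and 75.9% in either direction. The median log2 fold change over the 46 genes was -0.05, beside 0.00 over all genes tested. Changes were small in size, with a median absolute log2 fold change of 0.16, beside 0.29 over all genes tested, and 16 of the 46 lay within 0.1 of zero. Summed over all proteasome genes, the normalised level was 5991 and 5918 CPM in control and 5688 and 5575 CPM in sgUSP22, a log2 ratio of -0.08. The CPM of all genes tested summed to a log2 ratio of -0.05 under the same TMM scaling.

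**Figure D1:**
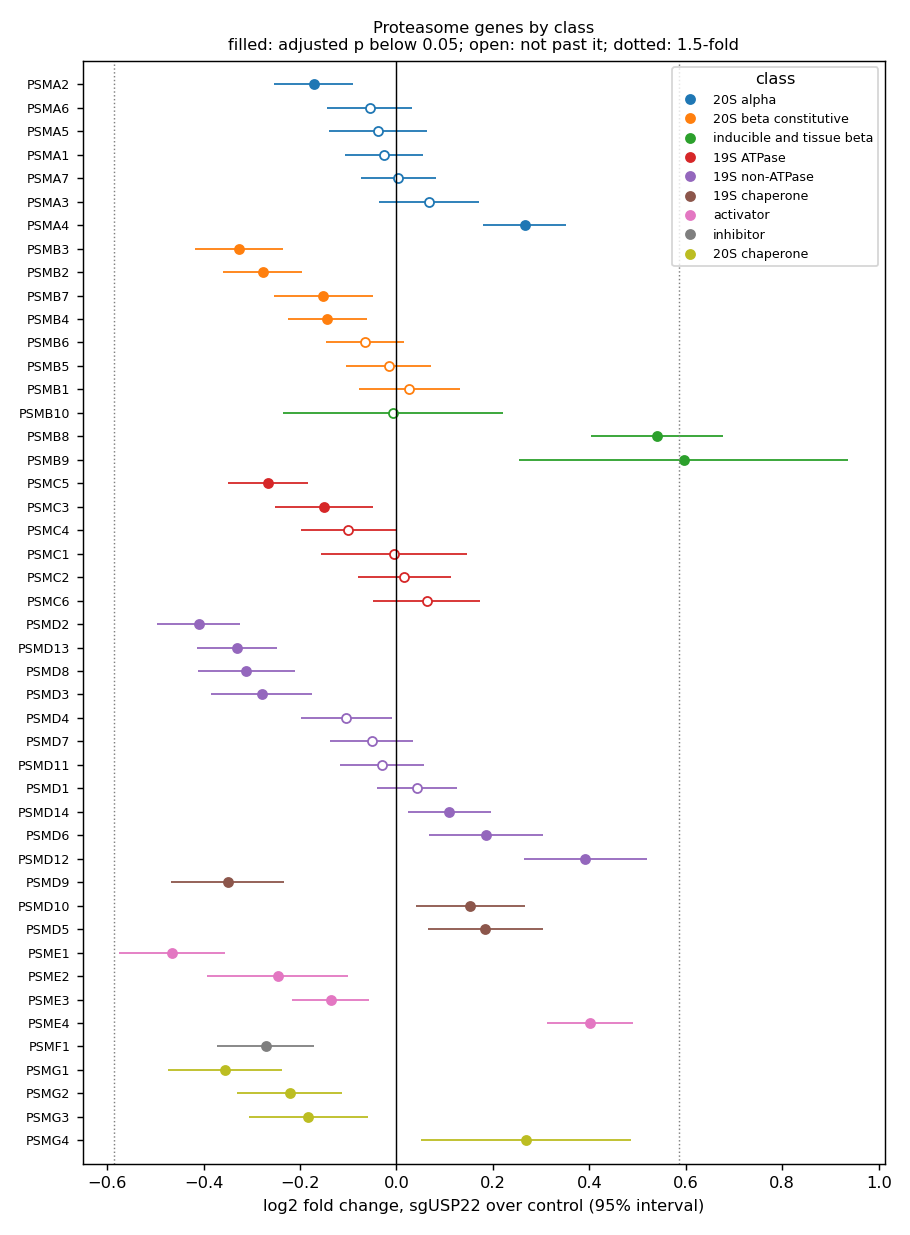
Log2 fold change (sgUSP22 over control) of the 46 proteasome genes tested, by class, with the 95% confidence interval of edgeR's quasi-likelihood fit as the bar. *PSMB8* and *PSMB9* lie highest at 0.54 and 0.60, and *PSME1* lowest at -0.46.

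**Figure D2:**
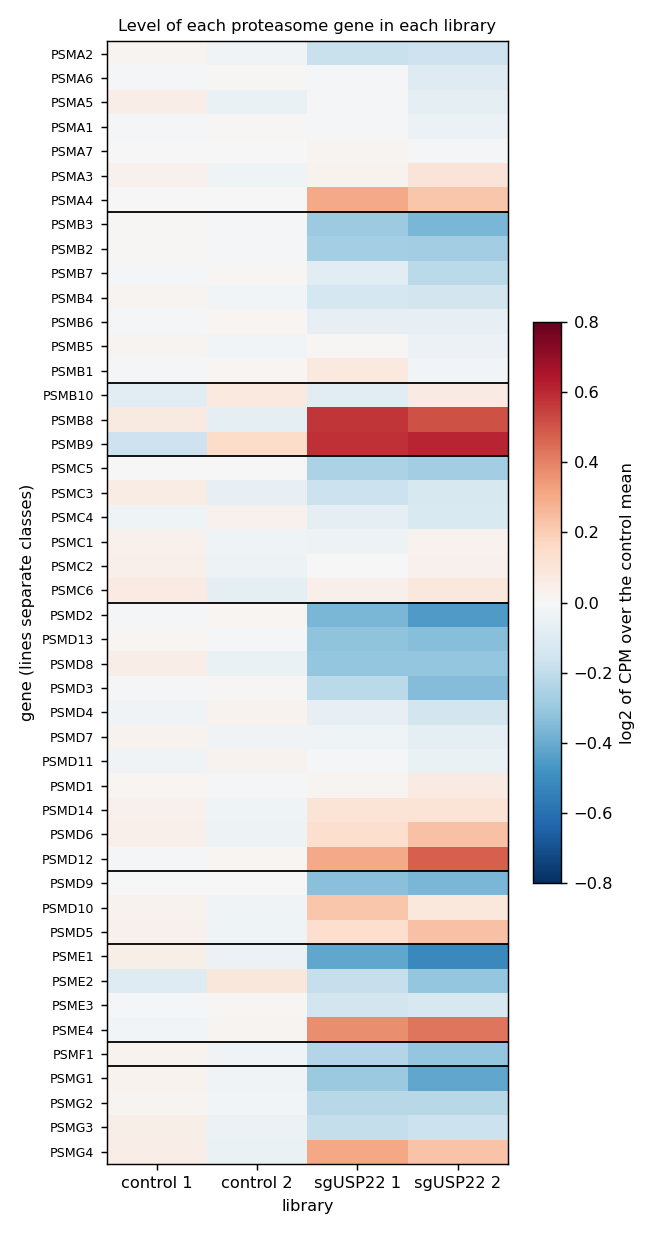
Normalised level of each proteasome gene tested (a row) in each library (a column), as log2 of CPM over the mean of the 2 control libraries, with horizontal lines between the classes. The rows of *PSMB8*, *PSMB9*, *PSME4*, *PSMD12* and *PSMA4* are raised in both sgUSP22 libraries, and those of *PSME1* and *PSMD2* are lowered in both.

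Among the 7 alpha subunits of the core, which form its outer rings, 1 rose, 1 fell and 5 did not pass the test. The share past the test was 28.6%, beside 52.5% of all genes tested. *PSMA4* had 217 and 216 CPM in control and 268 and 253 CPM in sgUSP22. The groups did not overlap, and it rose by 0.27 on the log2 scale (SE 0.038, edgeR adjusted p = 0.000273), or by 0.14 once each library was corrected for GC content and length. *PSMA2* had 198 and 191 CPM in control and 172 and 173 CPM in sgUSP22. It fell by 0.17 on the log2 scale (SE 0.037, edgeR adjusted p = 0.00302). *PSMA7* overlapped between the groups, at 212 and 212 CPM in control and 215 and 211 CPM in sgUSP22. The other alpha genes, *PSMA1*, *PSMA3*, *PSMA5* and *PSMA6*, lay between -0.06 and 0.07 in log2 fold change. With that correction *PSMA7* passed the test as higher, at 0.15, and *PSMA5* as lower, at -0.24. The class summed to 1320 ± 12.9 CPM (SD, n = 2) in control and 1329 ± 29.3 CPM (SD, n = 2) in sgUSP22, with overlapping libraries.

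Without the GC and length correction the 7 constitutive beta subunits of the core leaned lower, with 0 higher, 4 lower and 3 not past the test. The share lower was 57.1%, beside 25.8% of all genes tested. In either direction it was also 57.1%, near the 52.5% of all genes tested. *PSMB3*, a structural beta subunit, had 135 and 133 CPM in control and 110 and 104 CPM in sgUSP22. It fell by 0.33 on the log2 scale (SE 0.041, edgeR adjusted p = 0.000104). *PSMB2* fell by 0.28, *PSMB7* by 0.15 and *PSMB4* by 0.14 on the same scale. *PSMB1* had the highest log2 fold change of the class, 0.03, with 86.6 and 88.4 CPM in control and 92.3 and 86.0 CPM in sgUSP22. The class sum was 1062 ± 3.57 CPM (SD, n = 2) in control and 967 ± 23.4 CPM (SD, n = 2) in sgUSP22, and the libraries did not overlap. The exact permutation test of this sum gave p = 0.333, the smallest that 2 libraries against 2 allow. Each library was then corrected for the GC content and length of its transcripts. After this *PSMB1* at 0.12, *PSMB5* at 0.14 and *PSMB6* at 0.13 on the log2 scale passed the test as higher. *PSMB2* at -0.36 and *PSMB3* at -0.15 kept their direction and call. *PSMB4* at 0.01 and *PSMB7* at -0.03 lost their calls, so the lean did not hold after the correction.

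Per kilobase of the canonical GENCODE transcript, constitutive core subunit levels in control ran from 33.4 ± 0.273 CPM (SD, n = 2) for *PSMB2* to 264 ± 2.80 CPM (SD, n = 2) for *PSMA6*, although the core holds its subunits in equal number. The low end is *PSMB2*, *PSMA5* at 41.7 and *PSMA4* at 49.5 CPM per kilobase, whose canonical transcripts of 4426, 3815 and 4378 bases are the longest of these genes. A shorter transcript in use in these cells would raise these values, so the order at the low end is uncertain. Between *PSMA1* at 151 ± 1.17 (SD, n = 2) and *PSMB5* at 150 ± 3.41 (SD, n = 2) CPM per kilobase the difference was within the spread of the libraries.

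The catalytic subunits each have an inducible counterpart, PSMB8 for the chymotrypsin-like PSMB5, PSMB9 for the caspase-like PSMB6 and PSMB10 for the trypsin-like PSMB7, and 2 of the 3 inducible genes rose. *PSMB8* lies on chromosome 6 at 32840717 to 32844679 on the minus strand (hg38) and had 2478 and 2296 counts, or 40.6 and 36.8 CPM, in control and 3775 and 3556 counts, or 57.4 and 55.1 CPM, in sgUSP22. Both sgUSP22 libraries lay above both controls, and it rose 1.45-fold, with a log2 fold change of 0.54 (SE 0.061, edgeR adjusted p = 5.49e-05). *PSMB9*, next to it at 32844136 to 32859851 on the plus strand, had 227 and 288 counts, or 3.72 and 4.62 CPM, in control and 411 and 410 counts, or 6.25 and 6.35 CPM, in sgUSP22. It had the lowest level of the 3 inducible genes, did not overlap between groups, and rose by 0.60 on the log2 scale (SE 0.15, edgeR adjusted p = 0.00813). The 1.5-fold threshold is 0.58 on the log2 scale, so *PSMB8* lay just under it and *PSMB9* just past it, and with 1 library left out the *PSMB9* value ranged from 0.45 without control replicate 1 to 0.76. *PSMB9* was no longer called without control replicate 1 or without sgUSP22 replicate 2, while *PSMB8* was called without control replicate 1, at 0.61. *PSMB10*, on chromosome 16, had 835 and 959 counts in control and 901 and 983 counts in sgUSP22. The groups overlapped, and its log2 fold change was -0.01 (95% confidence interval -0.24 to 0.22, edgeR adjusted p = 0.963). With the GC and length correction *PSMB10* was at 0.24, the largest shift of the 46 genes, and did not pass the test (edgeR adjusted p = 0.0746).

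Of the constitutive partners, 1 passed the test. *PSMB5* had 159 and 154 CPM in control and 158 and 151 CPM in sgUSP22, a log2 fold change of -0.02 with overlapping libraries. *PSMB6* had 184 and 189 CPM in control and 179 and 178 CPM in sgUSP22, a log2 fold change of -0.07 that did not pass the test. *PSMB7* had 169 and 171 CPM in control and 160 and 146 CPM in sgUSP22, and fell by 0.15 on the log2 scale (SE 0.046, edgeR adjusted p = 0.0186). That call was lost with library size alone, with no filter, with the correction and without control replicate 2 or sgUSP22 replicate 2. A ratio within a library does not depend on the scaling between libraries. Per length, *PSMB8* stood at 23.8% and 22.2% of *PSMB5* in control and at 33.9% and 33.8% in sgUSP22, a log2 difference of 0.56. *PSMB9* stood at 1.64% and 1.98% of *PSMB6* in control and at 2.84% and 2.89% in sgUSP22, a log2 difference of 0.67. Neither ratio overlapped between the groups, and the two-sided exact permutation test gave p = 0.333 for each. *PSMB10* stood at 8.17% and 9.04% of *PSMB7* in control and at 8.65% and 10.5% in sgUSP22, and these overlapped (exact permutation p = 0.667).

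**Figure D3:**
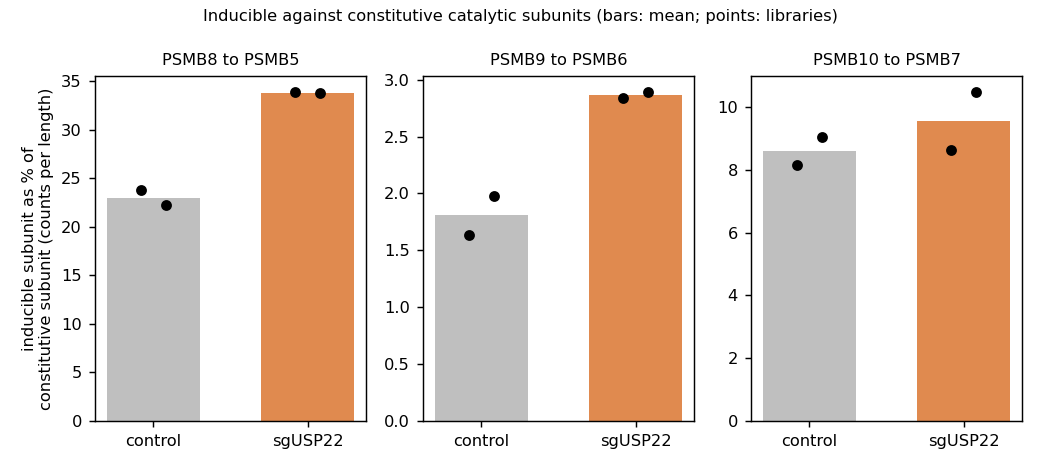
Ratio of each inducible catalytic subunit to its constitutive counterpart, in percent of counts per transcript length, with 1 point per library and a bar at the mean of each group. The points for *PSMB8* over *PSMB5* and for *PSMB9* over *PSMB6* separate between groups (22.2% to 23.8% against 33.8% to 33.9% for the first), while those for *PSMB10* over *PSMB7* overlap.

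The promoter windows of these genes are shown because interferon signals act through short sequences there. They are RefSeq windows of GRCh38.p14, from 250 bases before to 50 bases after a gene's start, read 5′ to 3′ on the gene's strand, and capitals mark matches on either strand to GAAA, any 2 bases and again GAAA, the letters of an interferon-stimulated response element (ISRE), or to TTCNNNGAA, those of a gamma-activated site.
PSMB8, chr6:32843998-32844297, minus strand: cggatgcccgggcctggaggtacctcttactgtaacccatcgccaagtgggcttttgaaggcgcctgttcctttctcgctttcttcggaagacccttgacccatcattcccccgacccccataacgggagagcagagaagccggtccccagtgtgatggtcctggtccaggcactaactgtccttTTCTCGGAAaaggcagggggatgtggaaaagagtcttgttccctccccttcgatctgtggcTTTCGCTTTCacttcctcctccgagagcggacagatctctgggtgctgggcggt
PSMB9, chr6:32853942-32854241, plus strand: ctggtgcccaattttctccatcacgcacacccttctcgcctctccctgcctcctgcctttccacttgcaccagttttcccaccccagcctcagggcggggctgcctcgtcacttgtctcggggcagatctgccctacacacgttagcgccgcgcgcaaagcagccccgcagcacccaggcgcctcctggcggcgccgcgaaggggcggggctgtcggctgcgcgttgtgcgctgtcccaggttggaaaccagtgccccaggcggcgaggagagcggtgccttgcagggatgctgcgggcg
PSMB10, chr16:67936801-67937100, minus strand: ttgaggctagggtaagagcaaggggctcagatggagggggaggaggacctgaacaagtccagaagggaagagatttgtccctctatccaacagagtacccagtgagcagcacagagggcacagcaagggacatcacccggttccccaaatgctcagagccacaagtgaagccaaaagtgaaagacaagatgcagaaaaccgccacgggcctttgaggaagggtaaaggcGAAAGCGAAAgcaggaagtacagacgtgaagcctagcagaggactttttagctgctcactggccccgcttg
The *PSMB8* window holds 1 match to each pattern, the *PSMB9* window 0 and the *PSMB10* window 1 match to the ISRE letters. A further *PSMB8* window, for a start upstream, holds 0. *PSMB9* and *TAP1*, a subunit of the transporter that carries peptides to MHC class I, start 488 bases apart in opposite directions, and the *TAP1* window holds 2 overlapping matches to the ISRE letters. Among the 51 windows of the 42 proteasome genes with a window, 7 (13.7%) hold the ISRE letters, beside 3.57% of all 35116 windows. The genes of these 7 windows went in both directions, with 3 higher, 3 lower and 1 not past the test. A match describes letters and not a bound site.

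Of 22 genes of the MHC class I pathway and of signals that induce the immunoproteasome, 12 rose, 7 fell and 3 did not pass the test. The share past the test was 86.4%, beside 52.5% of all genes tested. Past 1.5-fold, 5 rose and 1 fell, or 27.3% beside 16.1% of all genes tested. Those that rose included the MHC class I genes *HLA-F* at 1.63 and *HLA-B* at 0.91, the kinase gene *JAK2* at 0.83 and the MHC class I activator *NLRC5* at 0.69, all on the log2 fold change scale. With the GC and length correction *JAK2* was at 0.52 and no longer past 1.5-fold. *IRF1*, an activator of *PSMB9* and *TAP1*, fell by 0.30 and *TAP2* had a log2 fold change of 0.01. *TAP1* had 72.9 ± 0.288 CPM (SD, n = 2) in control and 98.9 ± 0.0706 CPM (SD, n = 2) in sgUSP22, a log2 fold change of 0.44. The annotated span of *PSMB9* covers *TAP1*, which lies on the opposite strand, over 8608 bases and overlaps that of *PSMB8* by 544 bases. Whether the counting used strand is not stated, so reads of these genes on opposite strands cannot be told apart where they overlap. *PSMB8-AS1*, antisense to *PSMB8*, lies on the same strand as *PSMB9* and overlaps its span by 2365 bases. There, strand alone would not separate the reads.

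The base of the 19S particle unfolds substrates. Of its 6 ATPase genes 0 were higher, 2 were lower and 4 did not pass the test. That is 33.3% past the test, beside 52.5% of all genes tested. The class sum went from 704 ± 23.2 CPM (SD, n = 2) in control to 659 ± 6.72 CPM (SD, n = 2) in sgUSP22. This is -0.10 as a log2 ratio, or -0.043 with library size alone, and the same choice took the constitutive beta sum from -0.14 to -0.084. *PSMC5* had 131 and 131 CPM in control and 110 and 108 CPM in sgUSP22, and fell by 0.27 on the log2 scale (SE 0.037, edgeR adjusted p = 0.000216). With the GC and length correction *PSMC5* fell by 0.13. *PSMC3* fell by 0.15, but with the GC and length correction its log2 fold change was 0.02. *PSMC6* had the highest log2 fold change of the ATPases, 0.06, with 114 and 104 CPM in control and 112 and 115 CPM in sgUSP22. With the GC and length correction *PSMC6* at -0.13 and *PSMC2* at -0.15 passed the test as lower. *PSMC1* has 13 annotated pseudogenes, and how the counting shared reads among such copies is not stated.

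The 11 non-ATPase genes held changes in both directions, 3 higher, 4 lower and 4 not past the test. Past the test were 63.6%, beside 52.5% of all genes tested. *PSMD2*, a scaffold of the base that binds ubiquitin-like domains, had the most counts of all proteasome genes in control, 24419 and 25619, and 20650 and 19126 in sgUSP22. That is 400 and 411 CPM against 314 and 296 CPM, with no overlap, and it fell by 0.41 on the log2 scale (SE 0.038, edgeR adjusted p = 1.56e-05). *PSMD13*, *PSMD8* and *PSMD3*, all subunits of the lid, fell by 0.33, 0.31 and 0.28 on the log2 scale, or by 0.22, 0.13 and 0.12 with the GC and length correction. *PSMD12*, another lid subunit, had 73.8 and 75.3 CPM in control and 91.9 and 104 CPM in sgUSP22. It rose by 0.39 (SE 0.057, edgeR adjusted p = 0.000286), or 0.16 with the GC and length correction. *PSMD14*, the deubiquitinase of the lid, had 171 and 163 CPM in control and 181 and 180 CPM in sgUSP22, a rise of 0.11 on the log2 scale whose call was lost with no filter, with the correction and in 3 of the 4 fits that leave out a library. *PSMD6*, a lid subunit, rose by 0.19, a call lost without control replicate 2 or sgUSP22 replicate 2. By position in the particle, the 9 base genes of the naming pattern counted 0 higher and 3 lower, and the 8 lid genes 3 higher and 3 lower. These are 33.3% and 75.0% past the test, beside 52.5% of all genes tested. Subunits named otherwise are not in these counts.

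The assembly chaperones moved in both directions, and 7 of 7 passed the test, beside 52.5% of all genes tested. *PSMG1*, which with PSMG2 starts the alpha ring, had 77.7 and 74.5 CPM in control and 61.9 and 57.0 CPM in sgUSP22. It fell by 0.36 on the log2 scale (SE 0.053, edgeR adjusted p = 0.000325), *PSMG2* fell by 0.22 and *PSMG3* by 0.18. With the GC and length correction, *PSMG3* stood at 0.02. *PSMG4*, the partner of PSMG3, had 12.2 and 11.4 CPM in control and 14.6 and 13.8 CPM in sgUSP22, a rise of 0.27 on the log2 scale (SE 0.097, edgeR adjusted p = 0.0405) that did not pass with any 1 library left out. Among the chaperones of the base, *PSMD9* fell by 0.35, with 47.9 and 47.8 CPM in control and 37.9 and 37.2 CPM in sgUSP22. *PSMD5* rose by 0.18 and *PSMD10*, also known as gankyrin, by 0.15 on the log2 scale, and neither passed the test after the correction.

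Of the 4 activator genes 1 was higher and 3 were lower, beside 26.8% higher and 25.8% lower over all genes tested. *PSME4*, which encodes PA200, rose, and the 3 PA28 genes fell, although the calls of *PSME2* and *PSME3* depended on the setting. *PSME4* had 121 and 125 CPM in control and 159 and 166 CPM in sgUSP22, with a log2 fold change of 0.40 (SE 0.040, edgeR adjusted p = 2.42e-05), or 0.21 with the GC and length correction. *PSME1*, PA28 alpha, had 121 and 114 CPM in control and 88.3 and 82.4 CPM in sgUSP22. It fell by 0.46 on the log2 scale (SE 0.049, edgeR adjusted p = 3.51e-05), the largest fall of the proteasome genes without the GC and length correction, and by 0.32 with it, when *PSMG1* fell by 0.39. *PSME2*, PA28 beta, fell by 0.25, although the call was lost with the GC and length correction (edgeR adjusted p = 0.167) and without control replicate 2 or sgUSP22 replicate 2. *PSME3*, the nuclear PA28 gamma, fell by 0.14 (edgeR adjusted p = 0.00919), a call lost with library size alone (edgeR adjusted p = 0.0717). *PSMF1*, which encodes the inhibitor PI31, had 106 and 102 CPM in control and 88.3 and 83.6 CPM in sgUSP22, a fall of 0.27 on the log2 scale.

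PA28 alpha and beta are induced by interferon together with the immunoproteasome, and here they moved opposite to *PSMB8* and *PSMB9*. Their windows are shown beside the earlier ones because each holds 1 match to the ISRE letters, as those of *PSMB8* and *PSMB10* do.
PSME1, chr14:24135944-24136243, plus strand: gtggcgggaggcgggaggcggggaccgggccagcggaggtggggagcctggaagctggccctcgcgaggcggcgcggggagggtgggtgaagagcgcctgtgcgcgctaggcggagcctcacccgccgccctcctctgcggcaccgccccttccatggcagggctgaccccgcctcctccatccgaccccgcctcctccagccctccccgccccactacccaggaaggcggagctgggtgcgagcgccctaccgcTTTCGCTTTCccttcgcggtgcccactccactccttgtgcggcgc
PSME2, chr14:24146561-24146860, minus strand: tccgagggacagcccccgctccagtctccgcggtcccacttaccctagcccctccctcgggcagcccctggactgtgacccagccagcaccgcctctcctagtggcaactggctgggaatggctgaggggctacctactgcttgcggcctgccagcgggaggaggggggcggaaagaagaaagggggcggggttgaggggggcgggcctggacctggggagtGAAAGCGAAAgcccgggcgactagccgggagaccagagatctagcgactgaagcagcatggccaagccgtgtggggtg
*PSMB8* rose, *PSMB10* did not pass the test and *PSME1* and *PSME2* fell, with the same pattern in 1 window of each. The window of *PSMB9*, which rose, holds 0. The span of *PSME2* overlaps the opposite-strand gene *RNF31* by 888 bases, and 6 pseudogenes of *PSME2* are annotated. TGACNNNGC, the core of the antioxidant response element through which NRF1 and NRF2 act, was found in 15 of the 51 windows (29.4%) against 13.3% of all windows. Of the genes of these 15 windows 5 were higher, 8 were lower and 2 did not pass the test. CCAAT was in 20 windows (39.2%) beside 34.6% of all, and TTCNNNGAA in 8 (15.7%) beside 7.66%.

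Proteasome components and cofactors named otherwise were 22 tested genes, of which 7 rose, 4 fell and 11 did not pass the test. The shares were 31.8% higher and 18.2% lower, beside 26.8% higher and 25.8% lower over all genes tested. Past 1.5-fold there were 0, beside 16.1% of all genes tested. *AKIRIN1*, a relative of the factor that imports proteasomes into the nucleus, rose by 0.55 on the log2 scale, the highest value of the list. *DDI1* was at 0 in all 4 libraries. Among 16 genes of the transcriptional control of the proteasome, 6 rose and 6 fell, or 75.0% past the test beside 52.5% of all genes tested. *NFE2L1*, which encodes NRF1, the factor that raises proteasome genes when the proteasome is impaired, fell by 0.16 on the log2 scale. *NFE2L2*, which encodes NRF2, rose by 0.12, and *DDI2*, the protease that activates NRF1, rose by 0.30. *MAFF*, a small Maf partner of these factors, fell by 0.81 and was the 1 gene of the list past 1.5-fold. *FOXO4* rose by 0.57 and *SYVN1*, an endoplasmic reticulum ubiquitin ligase, by 0.55 on the log2 scale.

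The genes that make and activate ubiquitin leaned lower, with 1 higher and 5 lower of 6, beside 26.8% higher and 25.8% lower over all genes tested. *RPS27A* fell by 0.29 and *UBB* by 0.21 on the log2 scale, and both encode ubiquitin itself. The ubiquitin-activating enzyme gene *UBA1* fell by 0.16, and *UBA6*, an alternative activating enzyme, rose by 0.51, or by 0.14 with the GC and length correction.

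The proteasome genes are spread over 17 chromosomes, with 8 on chromosome 14 and 7 on chromosome 17. Pearson's r between GC content of the transcript and log2 fold change was -0.28 across the 46 genes, which are not independent replicates and share the 4 libraries. After each library was corrected for GC content and length, r was 0.21. Pearson's r between log2 transcript length and log2 fold change was 0.08 before the correction and -0.30 after it. The 17 genes with under 45% GC had a median log2 fold change of 0.04 before and -0.03 after. The 14 genes from 45% to 52% GC had the lowest median, -0.14 before and -0.05 after, and the 15 genes above 52% GC had -0.10 before and 0.02 after. The direction reversed for 11 of the 46 genes, of which *PSMB4*, *PSMC3* and *PSMG3* had passed the test. The rises of *PSMB8* and *PSMB9* were larger after the correction, 0.71 and 0.75 on the log2 scale, and the falls of *PSME1* and *PSMD2* were 0.32 and 0.34.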

How the data were processed

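RNA-seq libraries of 2 control and 2 sgUSP22 samples were analysed. Per the labels, HISAT2 2.2.1 aligned the reads to hg38, and the authors deposited whole-number read counts per gene from StringTie 2.2.1, not divided by library size. The annotation and the strand setting of the counting are not given in the sources used here. Columns were assigned to samples by name, and 0 were left unassigned.

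Tests used edgeR 4.0.16 in R 4.3.3 on all genes that passed filterByExpr (minimum count 10), with TMM factors and the quasi-likelihood functions glmQLFit and glmQLFTest. The SE of a log2 fold change is its size over the root of F. The call required an adjusted p below 0.05 and, where stated, a fold change of at least 1.5. DESeq2 1.42.0 was an alternative, and limma 3.58.1 was loaded with edgeR. Positions, lengths and GC content came from the GENCODE annotation of hg38, which matched 25763 symbols. Counts between 62030307 and 64728272 per library limit precision most for genes of few counts, such as *PSMB9*. Procedures were tested on simulated data.

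The proteasome genes and the other lists were chosen with earlier results of these data known. Genes named are the catalytic pairs, those called, the largest and smallest log2 fold change of each class and list, genes at 0, and others inside counts. Some genes of the other lists are not reported here by name.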

Additional observations from a re-analysis of the deposited data

How the results depend on the processing

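Of 322 comparisons of a proteasome gene with another setting on all libraries, 281 kept direction and side of the threshold, 18 no longer passed, 4 newly passed and 19 reversed. With 1 library left out, 148 of 184 kept both, 23 no longer passed, 1 newly passed and 12 reversed, and 0 of those were genes that had passed. Leaving out 1 library leaves a lone sample, assumed to vary like the other group. Why values changed was not tested. Proteasome genes higher past 1.5-fold were 1, and 2 with library size alone, 2 with the GC content and length correction, 0 in the test against 1.5-fold, 10 with no fold threshold, and 0 to 1 with a library left out. Those lower were 0, and 19 with no fold threshold. Genes past the adjusted p with a library left out were 5 to 9 higher and 16 to 18 lower. Genes of the other lists higher past 1.5-fold were 5, 8 with library size alone and 4 to 7 with a library left out. The median log2 fold change was -0.00152 with library size alone, -0.027 with the correction and -0.083 to -0.053 with a library left out. Library size alone moved the median of all genes to 0.05.

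With library size alone, log2 fold changes reversed to 0.013 for *PSMA5*, 0.025 for *PSMA1*, 0.036 for *PSMB5*, 0.046 for *PSMC1*, 0.046 for *PSMB10*, 0.00063 for *PSMD7* and 0.022 for *PSMD11*. With the correction they reversed to 0.040 for *PSMD4*, 0.0084 for *PSMB4*, 0.016 for *PSMC3*, 0.14 for *PSMB5*, -0.13 for *PSMC6*, 0.24 for *PSMB10*, 0.13 for *PSMB6*, 0.019 for *PSMC4*, -0.015 for *PSMD1*, 0.018 for *PSMG3* and -0.15 for *PSMC2*. With a mean of at least 50 counts *PSMA7* had -0.00024. With a library left out the ranges were -0.090 to 0.014 for *PSMA5*, -0.057 to 0.012 for *PSMB5*, -0.0037 to 0.13 for *PSMC6*, -0.042 to 0.028 for *PSMC1*, -0.088 to 0.079 for *PSMB10*, -0.024 to 0.020 for *PSMA7*, -0.037 to 0.077 for *PSMB1*, -0.026 to 0.058 for *PSMC2* and -0.013 to 0.032 for the alpha sum.

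The replicate numbers were not used as pairs in the main fit, since the labels give them no meaning and there would be only 2 pairs. Whether same-numbered libraries belong together is not known. Deviations of same-numbered libraries correlated at 0.275 over 11906 genes. With the replicate block, 10 proteasome genes were higher and 19 lower past the adjusted p, and 1341 of all genes were higher and 1100 lower past 1.5-fold.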

Other observations

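Gene symbols that start with PSM but lie outside the naming pattern are antisense or interacting genes, and 2 of the 6 passed the quasi-likelihood test of edgeR. *PSMC3IP*, which encodes a partner of the meiotic recombinases, had 2724 and 2716 counts in control and 2448 and 2265 in sgUSP22, and fell by 0.29 on the log2 scale (edgeR adjusted p = 0.00212). *PSMD6-AS2*, an antisense gene, had 41 and 33 counts in control and 64 and 90 in sgUSP22, a log2 fold change of 0.98 (edgeR adjusted p = 0.0411). *PSMB8-AS1* had 74 and 69 counts in control and 123 and 77 in sgUSP22 and did not pass (edgeR adjusted p = 0.291). *PSMA3-AS1*, *PSME3IP1* and *PSMG3-AS1* did not pass either, with log2 fold changes of 0.19, -0.08 and 0.31. Strand use in the counting is not stated, so reads of an antisense gene and its partner cannot be told apart.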
